A study of Mus musculus with 8 samples.

Results

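The prostaglandin pathway was followed through 10 genes, chosen by name: Pla2g4a for the release of arachidonic acid, Ptgs1 and Ptgs2 for the cyclooxygenase step, Ptges, Ptges2, Hpgds, Ptgis and Tbxas1 for the terminal synthases, and Ptger2 and Ptger4 for 2 receptors of PGE2. All 10 were found by symbol among the 31406 genes of the count table that holds both groups. The data are RNA sequencing libraries of 8 primary cultures of microglia, the macrophages that reside in the brain. All were labelled as wild type and as day 3. Per the methods the cultures were prepared from the striatum of C57/BL6 pups aged 2 to 4 days. Every culture was grown for 15 days and then activated for 48 h with lipopolysaccharide (LPS, 0.01% v/v) and interferon-γ (IFN-γ, 0.002% v/v, listed in the methods as the human protein). Adenosine receptor ligands went into the medium 24, 32 and 40 h after activation began, and RNA was taken 8 h after the last addition. The A2A antagonist group (n = 4 libraries) received 200 nM SCH 58261, which blocks the adenosine A2A receptor, and the dual group (n = 4 libraries) received SCH 58261 together with 200 nM 2-Cl-IB-MECA, an agonist of the adenosine A3 receptor. LPS, IFN-γ and SCH 58261 were therefore common to both groups, and the comparison made here is that of 2-Cl-IB-MECA added on top of SCH 58261. Vehicle-treated control libraries belong to no sample of the series and were not used here. The titles, which gave the groups, and the treatment field of the labels disagree: in that field 2-Cl-IB-MECA stands with the single-ligand titles and is missing from the titles that give both ligands. The names of the deposited count columns give the same grouping as the titles, on which the sign of every difference below rests. The methods mention 4 pregnant animals without tying a library to a litter, so p-values measure the spread between these libraries, which may be partly technical.

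Prostaglandins are lipid mediators made from arachidonic acid. Cytosolic phospholipase A2 frees the acid from membrane phospholipids, the cyclooxygenases COX-1 (Ptgs1) and COX-2 (Ptgs2) turn it into the unstable prostaglandin H2, and terminal synthases convert that intermediate into PGE2, PGD2, prostacyclin or thromboxane. COX-2 and the microsomal PGE2 synthase are known as the inducible enzymes of inflammation and are raised by LPS in macrophages and glia, whereas COX-1 is regarded as the constitutive form. PGE2 acts in part through EP2 (Ptger2) and EP4 (Ptger4), receptors that couple to Gs and raise cAMP, as the A2A receptor does, while the A3 receptor couples to Gi.

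None of the 10 genes was called as different between the groups. With the quasi-likelihood F test of edgeR and Benjamini-Hochberg adjustment over the 18756 genes tested, 0 of 10 had an adjusted p-value under 0.05, against 39 genes in the whole table (0.208%), and the smallest adjusted p-value among the 10 was 0.356. At an unadjusted p-value under 0.05 there was 1 of 10, Ptgs2, where 12.8% of all genes tested passed (5.98% higher and 6.81% lower in the dual group). No gene of the 10 had groups without overlap, a pattern shown by 7.42% of all genes tested. DESeq2 gave an adjusted p-value to 6 of the 10, with 0 under 0.05 and a smallest value of 0.256. Fold changes were higher in the dual group for 6 genes and lower for 4, with a median log2 fold change of 0.02 against 0.00 over all genes tested. The 95% intervals of all 10 fold changes lay between 0.793 and 1.24, so differences of 1.5-fold or more in either direction fell outside every interval.

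The 10 genes spanned a wide range of levels. On the scale of CPM (counts per 1e6 counts, scaled with TMM factors) per kilobase of exonic gene length, averaged over the 8 libraries, the order of levels began with Ptges (60.4) and Ptgs2 (50.2), the inducible pair. Pla2g4a (15.5), Ptges2 (11.4) and Hpgds (4.25) followed. Ptgis (2.46), Tbxas1 (2.10) and Ptgs1 (2.05) came next, and the receptors Ptger4 (1.18) and Ptger2 (0.849) were lowest. Ranges over the 8 libraries overlapped for the neighbours Ptges and Ptgs2, Ptgis and Tbxas1, and Tbxas1 and Ptgs1, and for no other neighbours in this order. Among the genes tested, Ptges and Ptgs2 stood at the 95.9th and 94.9th percentile of this measure and Ptger2 at the 26.3rd. Together the 10 genes took 0.0666 to 0.0727% of the counts of a library.

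**Figure D1:**
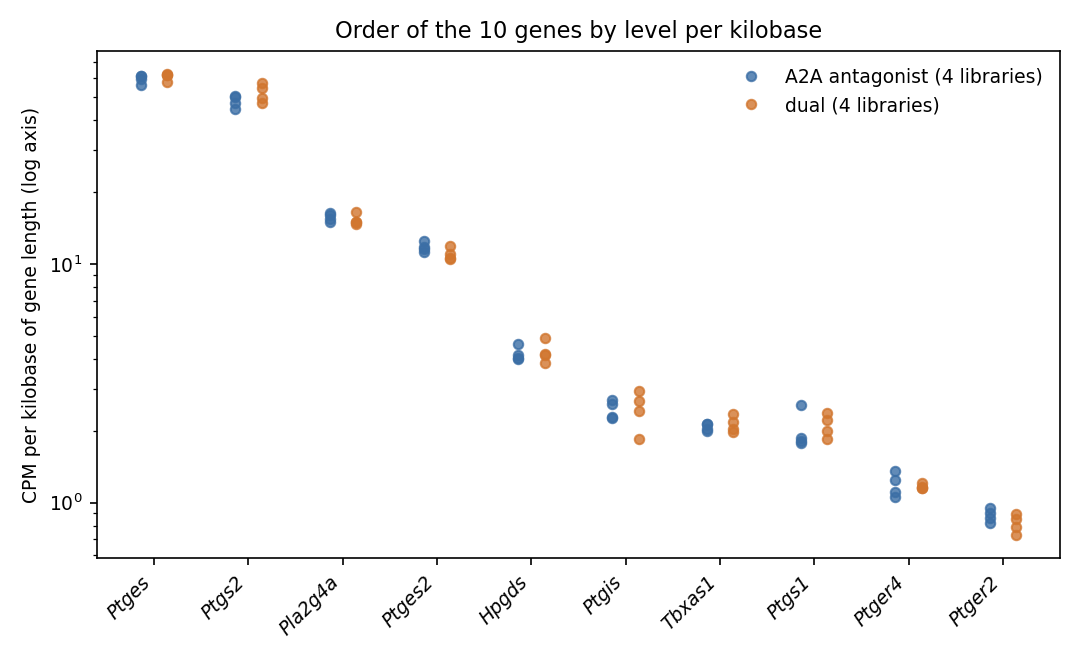
Level of each of the 10 genes in CPM per kilobase of gene length on a log axis, with 1 point per library (blue, A2A antagonist; orange, dual; 4 libraries each), in order of the mean over the 8 libraries. Ptges (60.4) and Ptgs2 (50.2) lay above Pla2g4a (15.5), and the points of the groups overlapped at every gene.

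The cyclooxygenases were the members furthest apart in level for enzymes with the same reaction, and the stretches around their transcription start sites are shown for that reason, from RefSeq (GRCm38.p6), from 250 bases before to 30 bases after the annotated start, on the plus strand for both genes. The Ptgs2 stretch lies at chr1:150099781-150100060 and that of Ptgs1 at chr2:36230176-36230455. Capitals mark matches to the 7 motifs searched on both strands.
Ptgs2: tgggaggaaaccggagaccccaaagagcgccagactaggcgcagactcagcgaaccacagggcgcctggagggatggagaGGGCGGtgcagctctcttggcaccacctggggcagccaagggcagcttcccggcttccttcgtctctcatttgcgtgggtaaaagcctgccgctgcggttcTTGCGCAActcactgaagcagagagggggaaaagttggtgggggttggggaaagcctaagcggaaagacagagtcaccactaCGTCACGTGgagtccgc
Ptgs1: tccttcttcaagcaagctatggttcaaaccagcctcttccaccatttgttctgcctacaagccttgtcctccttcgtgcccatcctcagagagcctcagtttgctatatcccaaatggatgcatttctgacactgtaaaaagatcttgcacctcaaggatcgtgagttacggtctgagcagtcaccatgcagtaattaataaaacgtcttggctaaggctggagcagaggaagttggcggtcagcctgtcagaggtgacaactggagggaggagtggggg
The Ptgs2 stretch held a GC box (GGGCGG) starting 170 bases before the start, a C/EBP palindrome (TTGCGCAA) 69 bases before it, and a short cAMP response site (CGTCA) 13 bases after it that overlaps an E-box (CACGTG) beginning 16 bases after the start. The Ptgs1 stretch held no match to any of them, nor to a TATA box (TATAAA), a GAS element (TTCNNNGAA) or the NF-kB motif, which were also searched and were missing from the Ptgs2 window too. Of the 32851 promoter windows of 300 bases in the RefSeq table, 35.7% held the GC box, 0.183% the C/EBP palindrome, 20.8% the cAMP site, 7.15% the E-box, 13.6% the TATA box, 8.30% the GAS element and 8.46% the NF-kB motif. The motif list was settled with the Ptgs2 letters in view, so these shares are no measure of how unusual that promoter is, and a match is a match of letters, not evidence of binding, just as no match speaks only of these letters in this window. The RefSeq table held windows for 9 of the 10 genes.

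Pla2g4a encodes cytosolic phospholipase A2-alpha, the enzyme that frees arachidonic acid after a calcium signal (ENSMUSG00000056220, chromosome 1, 149829618 to 149961290, minus strand, GRCm38). Its level was 95.8, 102, 104 and 98.2 CPM in A2A antagonist libraries 1 to 4 and 96.2, 94.3, 95.4 and 105.9 CPM in dual libraries 1 to 4. Dual libraries 2 and 3 were the lowest 2 of the 8, library 1 fell inside the antagonist range, and dual library 4 lay above all others. In edgeR the log2 fold change of Pla2g4a was -0.03 (SE 0.04, adjusted p = 0.819), and an exact permutation test, which runs through 70 arrangements of the libraries and cannot give a p under 0.0286, gave p = 0.543. Pla2g4a and Ptgs2 are neighbours on chromosome 1, separated by 138740 bases.

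Ptgs2 encodes COX-2 (ENSMUSG00000032487, chromosome 1, 150100031 to 150108227, plus strand) and had the largest fold change of the enzymes. In the A2A antagonist libraries 1 to 4 it measured 230.3, 232, 216 and 204 CPM, and in the dual libraries 1 to 4 it measured 227, 217, 251 and 262 CPM. Dual libraries 3 and 4 exceeded every antagonist library, whereas dual libraries 1 and 2 fell inside the antagonist range, so the groups overlapped. The means were 221 ± 13.4 CPM and 239 ± 21 CPM (SD, n = 4 each). On the log2 scale the fold change was 0.12 (SE 0.05, 95% interval 0.01 to 0.23), a fold of 1.09, with an edgeR p of 0.0393 before and 0.356 after adjustment over all genes tested. By the exact permutation test the difference gave p = 0.229. With 1 library left out, the log2 fold change ran from 0.07 (without dual library 4) to 0.16 (without dual library 2). Its sign was kept in all 15 alternative settings, where the adjusted p ranged from 0.197 to 0.668. This difference was therefore not called in any setting, and the permutation test did not separate it from the spread between libraries.

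Ptgs1 encodes COX-1 (ENSMUSG00000047250, chromosome 2, 36230426 to 36252272, plus strand). It stood at 9.95, 7.23, 7.01 and 6.87 CPM in the A2A antagonist libraries and at 9.23, 7.15, 7.76 and 8.62 CPM in the dual libraries. Library 1 was the highest of its group in both cases, and the dual range lay within the antagonist range. Its log2 fold change was 0.08 (SE 0.11, adjusted p = 0.832 in edgeR). Without A2A antagonist library 1 it was 0.21, with an adjusted p of 0.330. On the scale per kilobase Ptgs2 exceeded Ptgs1 24.5 ± 3.38-fold in the A2A antagonist group and 24.96 ± 2.88-fold in the dual group (SD, n = 4 each), with single libraries from 19.6 to 27.5.

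**Figure D2:**
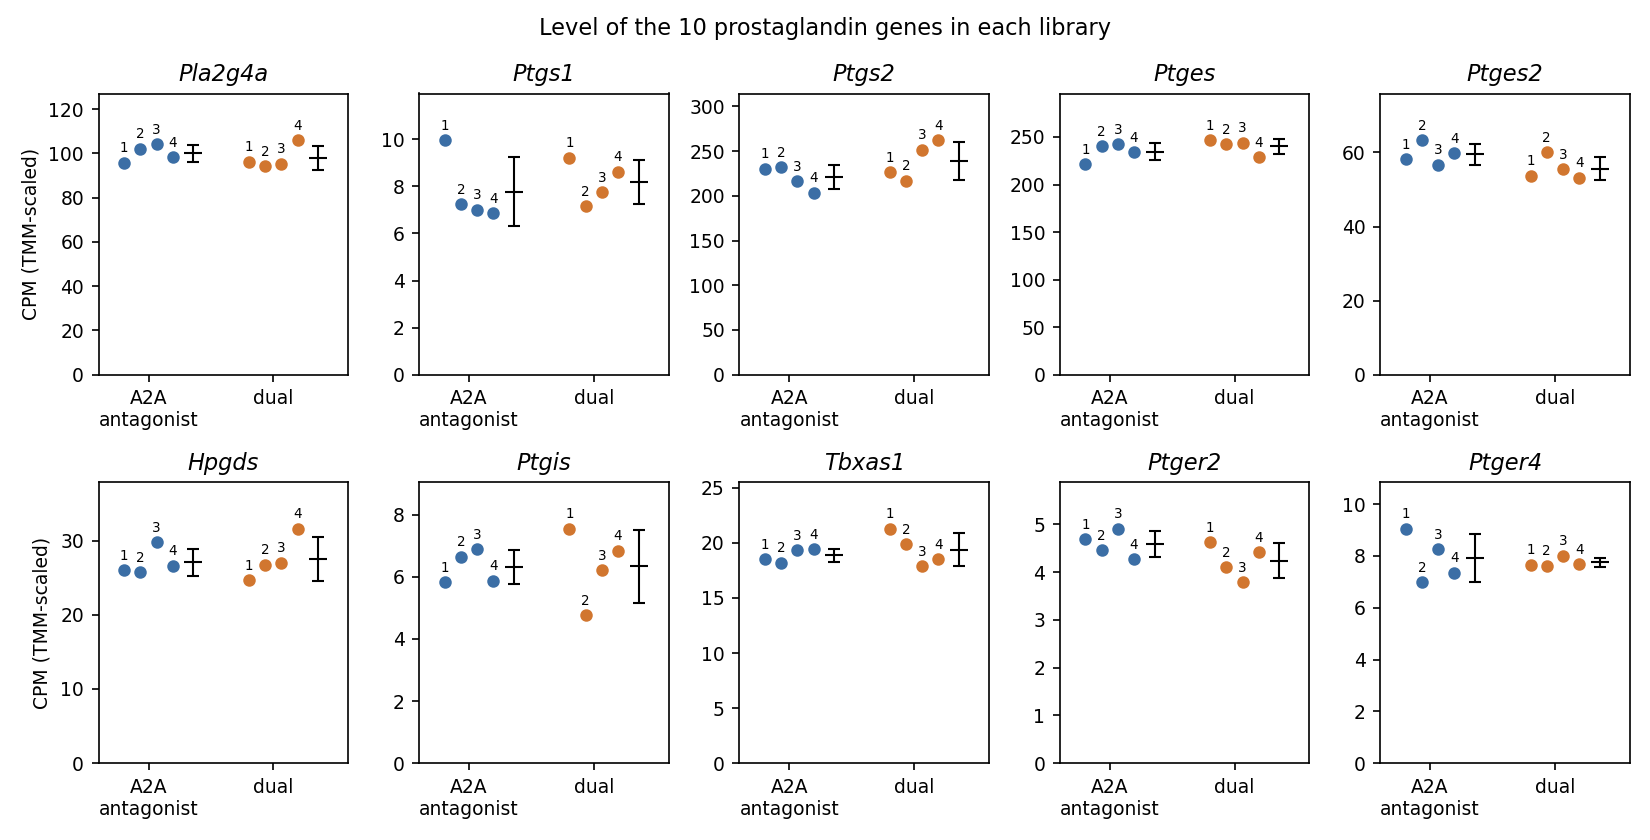
CPM (TMM-scaled, axes from 0) of each of the 10 genes in the 4 A2A antagonist libraries (blue) and the 4 dual libraries (orange), numbered by replicate, with the mean and SD of each group in black beside the points. The groups overlap in every panel, and for Ptgs2 dual libraries 3 and 4 lie above all antagonist libraries.

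PGE2 synthases were represented by 2 genes. Ptges, the inducible microsomal PGE2 synthase that works with COX-2 (ENSMUSG00000050737, chromosome 2, 30889471 to 30929863, minus strand), measured 222, 240.2, 242 and 234 CPM in the A2A antagonist libraries and 246, 243, 244 and 229 CPM in the dual libraries. Dual libraries 1 to 3 were above the antagonist range by a few CPM at most and dual library 4 was within it. Ptges had a log2 fold change of 0.04 (SE 0.04, 95% interval -0.04 to 0.11, adjusted p = 0.744 in edgeR), the narrowest interval of the 10. The other enzyme, Ptges2, is a PGE2 synthase made without a need for inflammatory induction (ENSMUSG00000026820, chromosome 2, 32395896 to 32405772, plus strand). It measured 58.2, 63.3, 56.7 and 59.8 CPM in the A2A antagonist libraries and 53.8, 60.1, 55.5 and 53.1 CPM in the dual libraries. Dual libraries 1, 3 and 4 lay below every antagonist library, and dual library 2 was higher than 3 of the 4 antagonist libraries. Ptges2 had a log2 fold change of -0.10 (SE 0.05), a fold of 0.934 with an interval from 0.873 to 1.00, with an edgeR p of 0.0501 before and 0.391 after adjustment. The exact permutation p of 0.143 was the smallest among the 10 genes. Per kilobase, Ptges exceeded Ptges2 5.08 ± 0.289-fold in the A2A antagonist group and 5.57 ± 0.293-fold in the dual group (SD, n = 4 each), and the groups overlapped in this ratio as well (4.89 to 5.50 against 5.19 to 5.90).

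The synthases of the other prostanoids were lower in level. Hpgds, the hematopoietic PGD2 synthase that is known in microglia and mast cells (ENSMUSG00000029919, chromosome 6, 65117293 to 65144908, minus strand), gave 26.0, 25.8, 29.8 and 26.6 CPM in the A2A antagonist libraries and 24.7, 26.8, 27.01 and 31.6 CPM in the dual libraries. The lowest and the highest of the 8 values were both dual libraries. Its log2 fold change was 0.03 (SE 0.07, adjusted p = 0.910 in edgeR), and without dual library 4 it was -0.05. Ptges exceeded Hpgds per kilobase 14.2 ± 0.812-fold and 14.4 ± 1.88-fold in the A2A antagonist and dual groups (SD, n = 4 each).

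Ptgis encodes prostacyclin synthase (ENSMUSG00000017969, chromosome 2, 167191805 to 167240604, minus strand), an enzyme best known from endothelium, smooth muscle and fibroblasts. Its level was 5.83, 6.64, 6.89 and 5.88 CPM in the A2A antagonist libraries and 7.54, 4.76, 6.21 and 6.83 CPM in the dual libraries. Dual libraries 1 and 2 bracketed all the others, and the SD of the dual group, 1.18 CPM, was the larger of the 2 groups (0.536 CPM in the A2A antagonist group). The log2 fold change was 0.00 (SE 0.12, 95% interval -0.24 to 0.25, adjusted p = 0.995 in edgeR), and its sign changed with the library left out, from -0.08 without dual library 1 to 0.11 without dual library 2. Tbxas1, the thromboxane synthase of platelets and macrophages (ENSMUSG00000029925, chromosome 6, 38875404 to 39084585, plus strand), measured 18.5, 18.2, 19.4 and 19.4 CPM in the A2A antagonist libraries and 21.3, 19.9, 17.9 and 18.5 CPM in the dual libraries. Here too the dual libraries held both the highest and the lowest value. Tbxas1 had a log2 fold change of 0.03 (SE 0.06, adjusted p = 0.866 in edgeR), which was -0.01 without dual library 1.

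Receptor transcripts were the lowest of the 10 in CPM per kilobase, though not in CPM, where Ptgis was below Ptger4 in both groups. Ptger2 (EP2; ENSMUSG00000037759, chromosome 14, 44988195 to 45003820, plus strand) was read 151 to 205 times per library. It measured 4.69, 4.46, 4.91 and 4.27 CPM in the A2A antagonist libraries and 4.63, 4.10, 3.79 and 4.42 CPM in the dual libraries. Dual libraries 2 and 3 lay below the antagonist range and libraries 1 and 4 within it. Ptger2 had a log2 fold change of -0.12 (SE 0.10, 95% interval -0.34 to 0.10, adjusted p = 0.693 in edgeR), the lowest bound of the 10. Ptger4 (EP4; ENSMUSG00000039942, chromosome 15, 5206661 to 5244187, minus strand) gave 9.05, 6.99, 8.25 and 7.35 CPM in the A2A antagonist libraries and 7.66, 7.62, 8.02 and 7.69 CPM in the dual libraries. The dual libraries clustered inside the antagonist range. Ptger4 had a log2 fold change of -0.03 (SE 0.09, adjusted p = 0.939 in edgeR), which was 0.04 without A2A antagonist library 1. Ptger4 was 1.35 ± 0.118 times Ptger2 per kilobase in the A2A antagonist group and 1.44 ± 0.156 times in the dual group (SD, n = 4 each).

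The strand setting of the read counting was not given in the sources used here, and exons of Ptger2, Ptger4, Ptgis, Ptgs1 and Tbxas1 overlap exons of a gene on the opposite strand, so their counts are less certain than those of Pla2g4a, Ptgs2, Ptges, Ptges2 and Hpgds, which have no such overlap. All 10 are annotated as protein coding.

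Beyond the 10 genes, 7 lists of genes around the pathway held 63 genes, of which 56 passed the filter on low counts. At an adjusted p under 0.05, edgeR called 0 of the 56, and DESeq2 also called 0 of those it gave an adjusted p-value. Without adjustment, 6 genes were higher and 4 lower in the dual group at p under 0.05, which is 17.9% against the 12.8% of all genes tested, and 3 genes (5.36%) had groups without overlap against 7.42%. The median log2 fold change of the 56 was -0.01. Among them 26 were higher and 30 lower in the dual group, beside 9664 higher and 9092 lower of the 18756 genes tested. The split of directions within a list, given below, was not tested.

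Of the other prostaglandin synthases, 0 of 6 were called, with 1 higher and 5 lower. Ptgds, the lipocalin-type PGD2 synthase of meninges, astrocytes and oligodendrocytes, had the highest level per kilobase of that list and the largest spread between libraries, with 171, 332, 157 and 159 CPM in the A2A antagonist libraries and 177, 225, 272 and 249 CPM in the dual libraries. All 4 dual libraries exceeded 3 of the 4 antagonist libraries, but A2A antagonist library 2 was the highest of all 8. The log2 fold change of Ptgds was 0.18 (SE 0.18, adjusted p = 0.735 in edgeR), and 0.51 without A2A antagonist library 2 (adjusted p = 0.0608). Cbr1, a carbonyl reductase that can convert PGE2 into PGF2-alpha, had the log2 fold change -0.10 (SE 0.05, adjusted p = 0.354) with all dual libraries (31.3 to 33.1 CPM) below the antagonist libraries (33.4 to 36.9 CPM). Akr1b3, an aldose reductase with PGF synthase activity, gave -0.09 (SE 0.04, adjusted p = 0.331). Akr1c18, which breaks down progesterone and was named after its values were seen, was counted only 4 to 19 times per library and gave -1.08 (SE 0.35, adjusted p = 0.192) without overlap between the groups.

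In the leukotriene and lipoxygenase arm, 0 of 10 tested genes were called and 8 of 10 were higher in the dual group. Alox5, the 5-lipoxygenase that opens leukotriene synthesis, measured 0.855, 1.19, 0.718 and 0.946 CPM in the A2A antagonist libraries and 1.78, 1.34, 1.68 and 1.31 CPM in the dual libraries. All dual libraries were above all antagonist libraries, at 30 to 77 counts per library. The log2 fold change of Alox5 was 0.71 (SE 0.20, 95% interval 0.28 to 1.13) with an edgeR p of 0.00266 before and 0.141 after adjustment. Ltb4r2, a leukotriene B4 receptor counted only 30 to 72 times per library, gave 0.47 (SE 0.22, adjusted p = 0.367 in edgeR) with overlap between the groups. Fpr2, the formyl peptide and lipoxin receptor with the highest level per kilobase of that list, gave 0.05 (SE 0.07, adjusted p = 0.819).

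For arachidonic acid release and re-esterification 0 of 12 tested genes were called and 9 were lower, over a range of log2 fold changes from -0.16 to 0.36, with Lpcat3, a lysophospholipid acyltransferase, at -0.03 (SE 0.04, adjusted p = 0.857 in edgeR). Prostaglandin transport and breakdown had 0 of 6 called and an even split of 3 and 3 (range -0.11 to 0.21), with Zadh2 (prostaglandin reductase 3) at -0.02 (SE 0.04, adjusted p = 0.896). The other prostanoid receptors had 0 of 6 called and 4 lower (range -0.18 to 0.08), with Ptgdr, the PGD2 receptor DP1, at -0.05 (SE 0.11, adjusted p = 0.911).

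Among regulators of Ptgs2 and Ptges, 0 of 8 were called and 6 were lower. Egr1, an immediate early transcription factor known to act on the Ptges promoter, measured 171, 184, 126 and 130.0 CPM in the A2A antagonist libraries and 201, 175, 196 and 169.6 CPM in the dual libraries. A2A antagonist libraries 3 and 4 were below the other 6, and libraries 1 and 2 fell within the dual range. The log2 fold change of Egr1 was 0.28 (SE 0.09, adjusted p = 0.192 in edgeR). Rela, the p65 subunit of NF-kB, gave -0.08 (SE 0.04, adjusted p = 0.389), and Cebpd, a C/EBP factor induced by inflammation and the highest in level of its list, gave -0.03 (SE 0.04, adjusted p = 0.760).

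Of 8 cAMP-responsive genes 0 were called and 7 were higher in the dual group. Nr4a1, an immediate early nuclear receptor, measured 21.3, 24.0, 12.2 and 10.96 CPM in the A2A antagonist libraries and 24.98, 22.3, 28.1 and 21.8 CPM in the dual libraries. As for Egr1, A2A antagonist libraries 3 and 4 lay below the other 6, while library 1 was just under the dual range and library 2 within it. The log2 fold change of Nr4a1 was 0.51 (SE 0.17, adjusted p = 0.205 in edgeR). Dusp1, a MAP kinase phosphatase, gave 0.19 (SE 0.07, adjusted p = 0.265), and Fosl2, a subunit of AP-1, gave 0.11 (SE 0.04, adjusted p = 0.224). With no filter on low counts Egr1 and Nr4a1 had adjusted p-values of 0.00224 and 0.00163, and all other alternatives left both above 0.05.

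**Figure D3:**
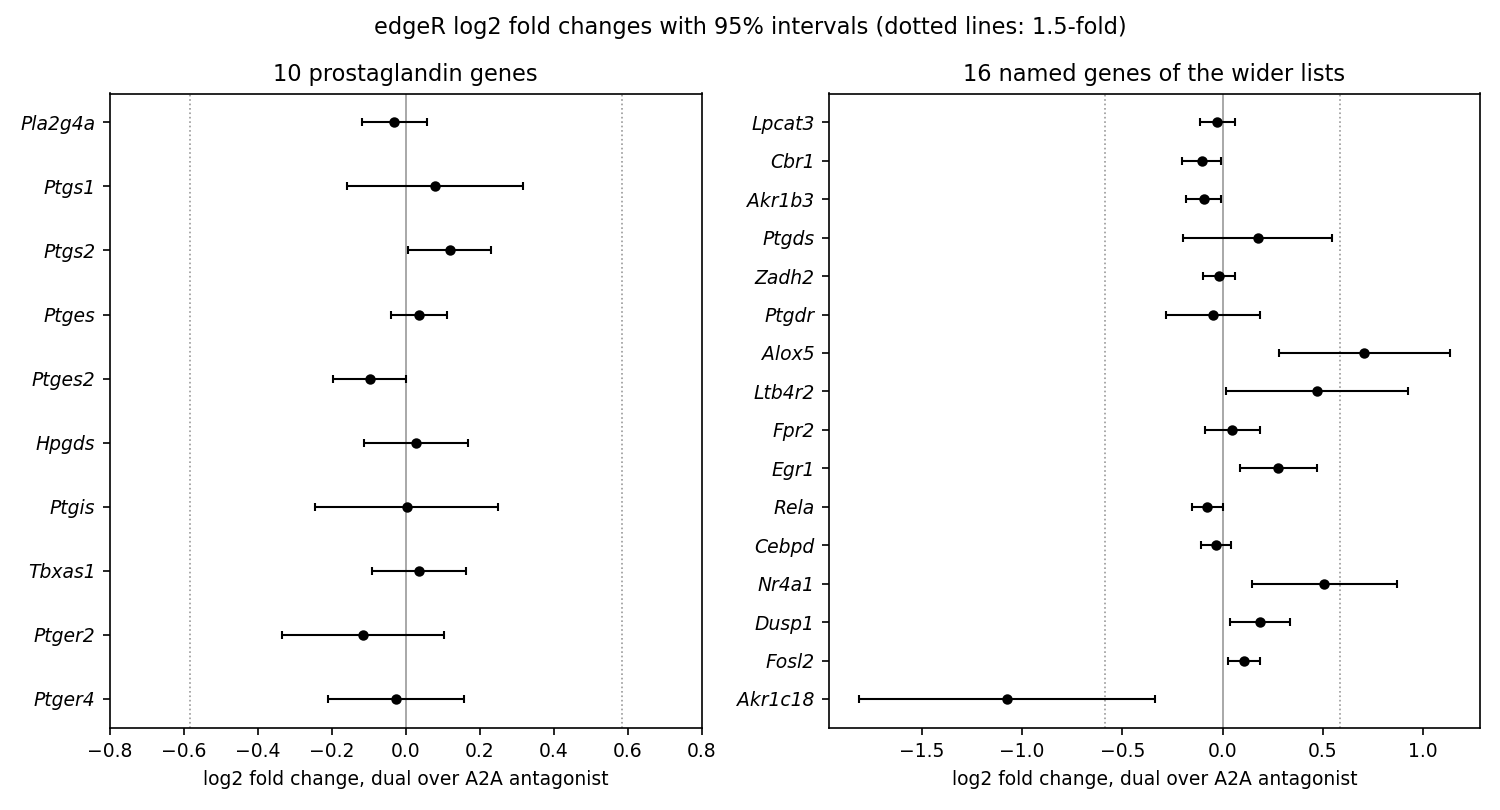
Log2 fold changes of the dual over the A2A antagonist group (points) with 95% intervals (bars) from edgeR, for the 10 prostaglandin genes (left) and for the 16 named genes of the wider lists (right, on a wider axis); dotted lines mark 1.5-fold. All 10 intervals on the left stay within the dotted lines, and Alox5 (0.71) and Akr1c18 (-1.08) lie furthest from 0 on the right.

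The libraries held 32630602 to 45878639 counts and 26155 to 26809 detected genes, with 1.58 to 1.80% of counts from mitochondrial genes. Markers of other cell types were abundant although the methods give over 95% CD11b-positive cells. The 10 microglial markers summed to 1058 to 1129 CPM in the A2A antagonist libraries and 1006 to 1071 CPM in the dual libraries, with Tmem119 at 7.41 and P2ry12 at 1.66 CPM in the antagonist group. The 7 astrocyte markers summed to 5777 to 6044 and 5830 to 6282 CPM, and the 6 fibroblast and meningeal markers to 2379 to 2652 and 2369 to 2986 CPM. Sums for mural cells were 202 to 218 and 201 to 232 CPM, for the oligodendrocyte lineage 188 to 202 and 176 to 207 CPM, for endothelial cells 34.8 to 44.9 and 36.8 to 44.8 CPM, and for neurons 2.92 to 4.11 and 2.73 to 3.51 CPM. The mast cell list was measured through Kit alone (22.2 to 29.9 and 20.7 to 28.5 CPM), since 3 of its 4 genes had no row in the table, as had Cldn5 of the endothelial list. No listed marker in the table was at 0 in all libraries. Of the markers, C1qa was called and was lower in the dual group (log2 fold change -0.24, SE 0.04, adjusted p = 0.0240 in edgeR), the only marker called. That call was lost without A2A antagonist library 2 (adjusted p = 0.0648), 3 (0.0791) or 4 (0.0932) or dual library 3 (0.0650), with log2 fold changes of -0.23, -0.24, -0.22 and -0.25. At an unadjusted edgeR p under 0.05, 1 of the 10 microglial markers was higher and 3 were lower in the dual group. Of the 6 fibroblast and meningeal markers 3 were higher and 0 lower. Of the 7 astrocyte markers 2 were higher and 1 lower, and of the 4 mural cell markers 1 and 0. The endothelial, oligodendrocyte, neuronal and mast cell lists had 0 in either direction. Over all genes tested the shares were 5.98% and 6.81%. The 3 microglial markers at this threshold other than C1qa were named after their values were seen. Csf1r was higher in all dual libraries (226 to 244 CPM) than in the antagonist libraries (211 to 223 CPM), with a log2 fold change of 0.11 (SE 0.03, adjusted p = 0.171 in edgeR). Fcrls was lower without overlap (-0.33, SE 0.08, adjusted p = 0.0952), and Aif1 was lower with overlap (-0.21, SE 0.06, adjusted p = 0.110). The part of these cell types in the levels of the prostaglandin genes was not tested, and in bulk RNA fewer cells of a type and less RNA per cell cannot be told apart.

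**Figure D4:**
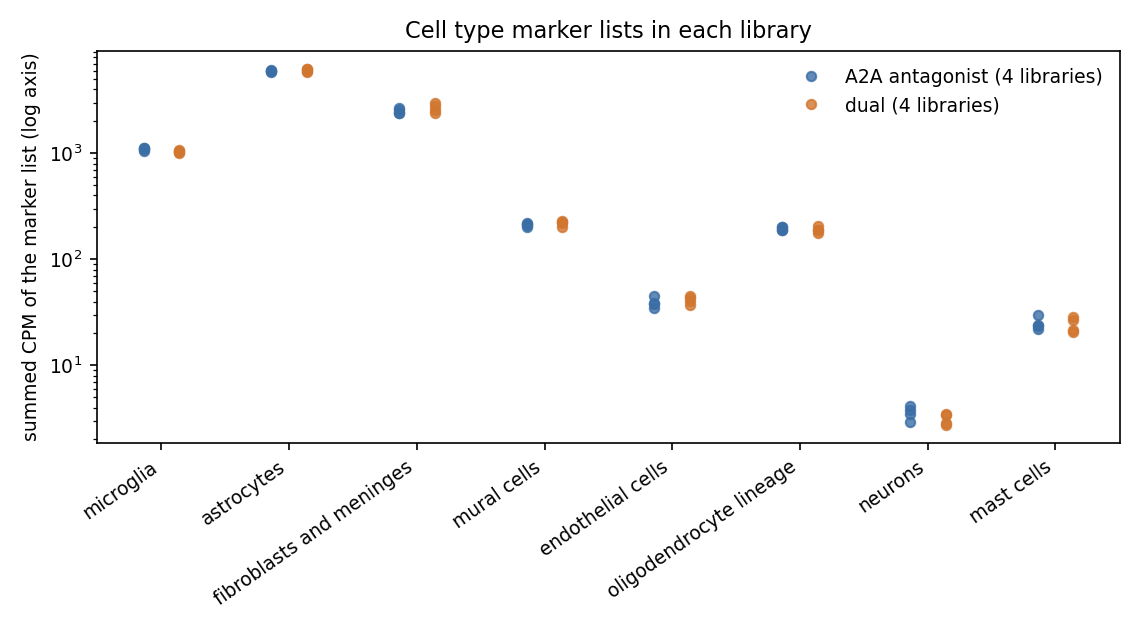
Summed CPM of each cell type marker list on a log axis, with 1 point per library (blue, A2A antagonist; orange, dual; 4 libraries each). Astrocyte markers (5777 to 6282 CPM) and fibroblast markers exceed the microglial ones (1006 to 1129 CPM) in every library, in sums not corrected for gene length, and the groups overlap in each list.

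The extreme values of the 10 genes were spread over the libraries. Dual library 1 was the highest of the 8 for Ptges, Ptgis and Tbxas1, and dual library 4 for Pla2g4a, Ptgs2 and Hpgds. The highest values of Ptgs1 and Ptger4 came from A2A antagonist library 1, of Ptges2 from library 2 and of Ptger2 from library 3 of the same group. The coefficient of variation within a group ran from 2.34% for Ptger4 in the dual group to 18.9% for Ptgs1 in the A2A antagonist group, and Ptgis in the dual group was close to the latter at 18.7%.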

How the data were processed

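Messenger RNA of 8 cultures was sequenced, 4 per group, with groups taken from the sample titles. Per the methods the authors removed reads with adapters or low quality and aligned the paired-end rest with Hisat2 2.0.5, and per the submitters' processing notes they used mm10 and counted with featureCounts 1.5.0-p3. The deposited values used are raw counts per gene, without normalization or pooling. The labels name a SMARTER kit, whereas the methods describe both directional and non-directional libraries. The methods also state 4 vehicle and 3 ligand replicates, while another statement of the study gives 3 and 4, as the tables hold. The tables further hold log2 fold changes and p-values of the authors' own comparisons, normalized values and FPKM, which were not used, and 9 columns of per-sample values of libraries outside this series were not used.

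Counts were tested in edgeR 4.0.16 (R 4.3.3): filterByExpr with minimum count 10, TMM factors, quasi-likelihood F test without covariates, Benjamini-Hochberg adjustment over 18756 genes. DESeq2 1.42.0 (Wald test, alpha 0.05) was an alternative, beside other scaling factors, other filters, a block for replicate number, and leaving out each library. Levels are TMM-scaled CPM (mean ± SD), standard errors come from the F statistics, and intervals are 95%. Single values were compared by the two-sided exact permutation test over 70 arrangements. No p-value was adjusted over the 10 genes alone, and p-values for ratios between genes were not computed. Scripts were tested on simulated data. Depth was 32630602 to 45878639 counts per library, and the 10 genes had 151 to 11617 counts per library. The level percentile of a gene is its rank in CPM per kilobase among the genes tested. No 2 libraries of a group agreed within sampling noise.

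The 10 genes, the lists around them and the markers were chosen with earlier results of these data known. All 10 genes are named whatever their values. In each other list the genes named are those with adjusted p under 0.05, up to 2 with the largest absolute log2 fold change among those with unadjusted p under 0.05 and mean log2 CPM of at least 0, and the gene with the highest level per kilobase. Promoter sequences were chosen after the levels, and the motifs after the Ptgs2 sequence, had been seen. Identifiers and coordinates are those of the deposited tables, and for all 10 genes equal those of GENCODE mouse release M21 (GRCm38).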

Additional observations from a re-analysis of the deposited data

Results flagged for a closer look

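Each library was compared with the other 3 of its group by Dixon's test at the 95% level for the 10 genes and the 16 named genes of the wider lists, in 52 groups of 4 in all. Chance flags about 1 in 20 groups, and 6 of 52 were flagged, 2 of them among the 20 groups of the 10 prostaglandin genes. Pla2g4a was set apart by dual library 4, at 105.9 CPM, and Ptgs1 by A2A antagonist library 1, at 9.95 CPM. Among the other genes, the single library far from the rest was dual library 4 for Cbr1 (31.3 CPM, low), A2A antagonist library 2 for Ptgds (332 CPM, high), dual library 3 for Fpr2 (36.6 CPM, low) and A2A antagonist library 3 for Rela (139 CPM, low). The cause was not tested for any of them.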

How the results depend on the processing

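The count of 0 of the 10 prostaglandin genes called was the same in all 15 alternative settings, though with DESeq2 it covers only the 6 genes that received an adjusted p-value (Ptger2, Ptgs1, Ptger4 and Ptgis received none). The number of genes called in the whole table, 39 in the edgeR test, was 366 with no low-count filter, 417 with DESeq2 and 17 with a replicate block, and ranged from 0 to 172 when 1 library was left out; it was 0 without A2A antagonist library 4 and without dual library 3, 5 without A2A antagonist library 2, 6 without A2A antagonist library 3 and 172 without A2A antagonist library 1. Among the wider lists 2 genes, Egr1 (log2 fold change 0.27) and Nr4a1 (0.50), were called with no low-count filter and 0 in the other settings. Of the 10 genes, those with an unadjusted p-value under 0.05 numbered 0 to 3 across settings. Signs turned only for fold changes near 0. With no low-count filter Ptgis was at -0.0034, and with the replicate block at -0.0083. With 1 library left out, the log2 fold change of Hpgds ran from -0.0466 (without dual library 4) to 0.0757, of Ptgis from -0.0843 (without dual library 1) to 0.114, of Tbxas1 from -0.0109 (without dual library 1) to 0.0696, of Ptger4 from -0.0816 to 0.0418 (without A2A antagonist library 1), of Lpcat3 from -0.0541 to 0.0033 (without dual library 4) and of Ptgdr from -0.137 to 0.0428 (without A2A antagonist library 2). For the 10 genes 141 of 150 alternative values kept their direction and their side of the threshold. In this count the 4 DESeq2 values without an adjusted p-value were taken as not called. The cause was not tested. Same-numbered libraries did not deviate together over all genes tested (correlations -0.0414, -0.0620, -0.0260 and -0.0821). This gave no sign that the numbers pair them, but it cannot exclude a shared litter or batch. The block for replicate number moved the calls from 39 to 17. Ptger2 had the lowest counts of the 10 genes, 151 to 205 per library, and an interval of 0.793 to 1.07-fold.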
